A study of Mus musculus with 9 samples.

Results

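The subject was a group of 5 forkhead transcription factor genes of gut mesenchyme, Foxf1, Foxf2, Foxl1, Foxd1 and Foxd2. They were taken as every probe set with 1 of these names as its single gene symbol in the platform annotation, which gave 8 of the 45101 probe sets on each array, or 5 of the 18193 genes with such a probe set. Foxf1, Foxf2 and Foxd2 had 2 probe sets each, Foxl1 and Foxd1 had 1 each, and 0 further probe sets carried a member's name beside another symbol. Expression had been measured in mesenchyme of the small intestine of C57Bl/6J mouse embryos at E18.5, late in gestation, on 9 arrays. Of these, 3 were from cultures given Sonic hedgehog (Shh), 3 from cultures given Indian hedgehog (Ihh) and 3 from cultures given Vehicle. All cultures had their epithelium taken off, stood on a collagen matrix for 48 h and were then treated for 24 h. The 6 wells of a treatment were pooled at random into 3 samples, so replicates are pools of wells, and p-values measure the spread between these pools, which the labels do not tie to embryos. No dose of either ligand and no composition of the vehicle was found in the labels.

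Forkhead factors bind DNA through a winged-helix domain and set the identity of many tissues. In the developing mouse gut the epithelium secretes Shh and Ihh, and the mesenchyme beneath it receives them through the receptor Ptch1 and the Gli transcription factors. Foxf1 and Foxf2 are made in mesenchyme derived from splanchnic mesoderm and take part in forming the gut wall and its muscle, Foxl1 marks mesenchymal cells directly under the epithelium, and all 3 have been linked to hedgehog signals in the mouse. Foxd1 is best known from the stroma of the mouse kidney, and Foxd2 from mesoderm-derived mesenchyme.

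Promoter windows of 300 bases (250 before to 50 after the start of transcription) from RefSeq, build GRCm38.p6, were used for Foxf2, Foxd1 and Foxd2. Those of Foxf1 and Foxl1 were not analysed here. The first one below is shown because Foxf2 is the close relative of Foxf1. The second, of Fendrr, is shown because this long non-coding RNA gene is the next gene to Foxf1 on chromosome 8. Capitals mark 2 short motifs on either strand, CCACCC (reverse GGGTGG), the inner core of the sequence that Gli factors bind, and GTAAACA (reverse TGTTTAC), a core of forkhead binding sequences. The Foxf2 window lies at chr13:31625566-31625865 on the plus strand and the Fendrr window at chr8:121083061-121083360 on the minus strand, both written 5′ to 3′.
Foxf2: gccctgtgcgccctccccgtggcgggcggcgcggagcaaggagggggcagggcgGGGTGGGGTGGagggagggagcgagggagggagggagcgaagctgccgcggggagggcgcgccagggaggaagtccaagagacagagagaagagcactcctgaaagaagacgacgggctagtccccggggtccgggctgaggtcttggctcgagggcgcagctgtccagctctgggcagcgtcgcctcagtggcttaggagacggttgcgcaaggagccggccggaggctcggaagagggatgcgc
Fendrr: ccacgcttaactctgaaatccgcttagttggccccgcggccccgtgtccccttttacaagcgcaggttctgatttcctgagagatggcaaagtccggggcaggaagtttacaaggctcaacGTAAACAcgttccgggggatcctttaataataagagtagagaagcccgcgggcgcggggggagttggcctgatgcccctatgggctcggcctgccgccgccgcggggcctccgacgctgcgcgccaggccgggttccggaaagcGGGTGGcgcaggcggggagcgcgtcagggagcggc
The inner Gli core was in the windows of Foxf2 (positions 55 to 60 and 60 to 65, which share 1 base), Foxd1 (41 to 46) and Fendrr (266 to 271), and in 31.5% of all 32851 windows. The longer Gli consensus GACCACCCA, which contains the inner core, was in 0 of the 3 members' windows and in 0.253% of all windows. The forkhead core was in the Fendrr window (122 to 128), in 0 of the members' windows and in 3.65% of all windows. A match is a description of these letters and not a binding site.

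The 2 probe sets of Foxf1 were higher on every ligand array than on every Vehicle array, but the differences were small and did not pass the threshold when each probe set was tested by itself. Foxl1 was higher on 5 of the 6 ligand arrays. Foxf2, Foxd1 and Foxd2 overlapped between ligand and Vehicle arrays. All values are log2 expression, so 1 unit is a doubling. A level also depends on the affinity of its probes, so no order between genes is read from levels of different probe sets. Tests are limma's, across all 45037 probe sets that are not controls, with Benjamini-Hochberg adjusted p and a threshold of 0.05. For both ligands against Vehicle, limma placed 0 of the 8 member probe sets past the threshold and 3 at an unadjusted p under 0.05, where 0.804% and 12.6% of all probe sets tested were called.

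**Figure D1:**
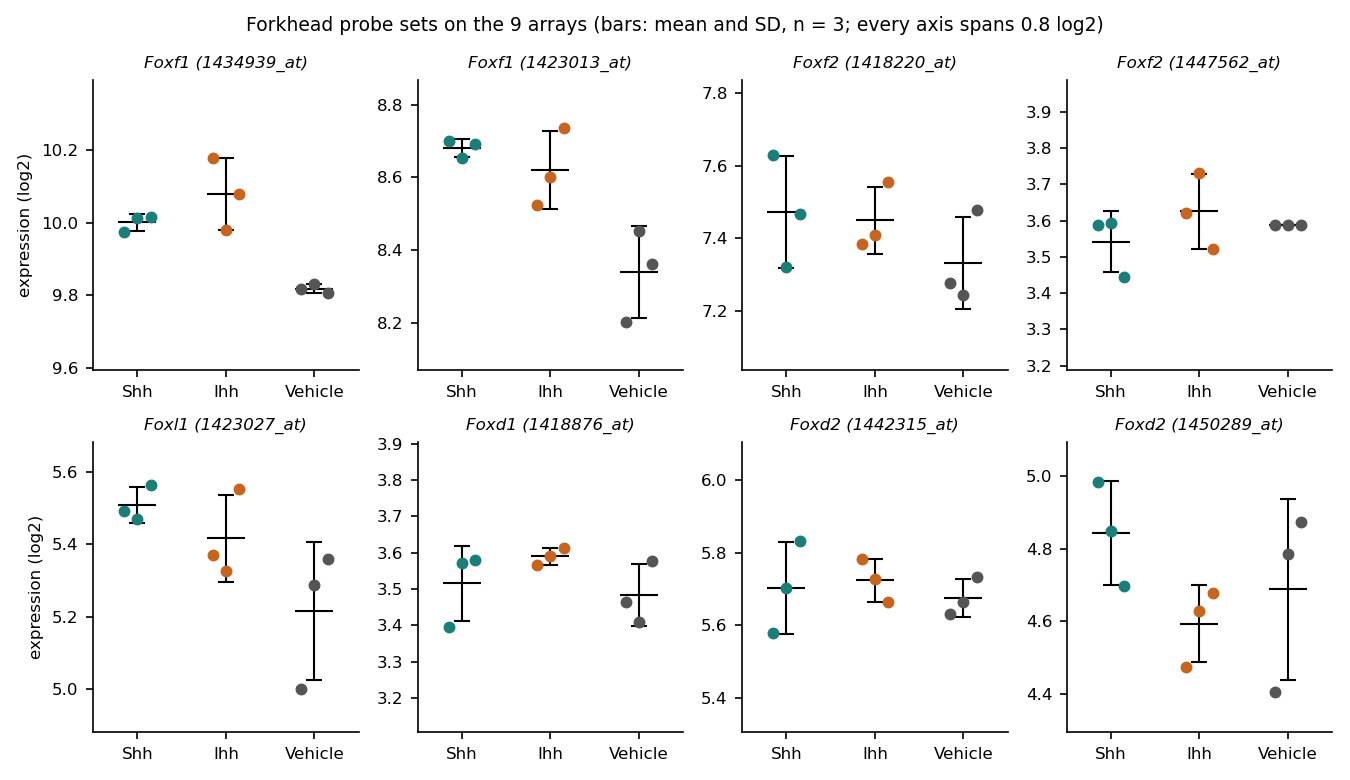
Expression (log2, vertical axes of equal span) of the 8 probe sets on each array, with Shh left, Ihh in the middle and Vehicle right. Points are arrays and bars are the mean and SD (n = 3). Both Foxf1 panels have their 6 ligand points above their 3 Vehicle points, while the Foxf2, Foxd1 and Foxd2 points overlap.

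Foxf1 is needed in the mouse for mesenchyme of splanchnic origin, in the gut and in the lung. Its probe set 1434939_at read 9.97, 10.01 and 10.02 log2 with Shh, 10.18, 9.98 and 10.08 with Ihh, and 9.82, 9.83 and 9.81 with Vehicle. All 6 ligand arrays were above the 3 Vehicle arrays, which lay close together, and the Ihh arrays were spread most. The group means were 10.00 ± 0.02 with Shh, 10.08 ± 0.10 with Ihh and 9.82 ± 0.01 with Vehicle (SD, n = 3 each). Both ligands against Vehicle differed by 0.22 ± 0.05 log2 (SE, limma adjusted p = 0.105), or 1.17-fold. The other probe set, 1423013_at, read 8.70, 8.65 and 8.69 with Shh, 8.52, 8.6 and 8.73 with Ihh, and 8.20, 8.45 and 8.36 with Vehicle. Here too every ligand array was above every Vehicle array, with Vehicle 1 the lowest of the 9. The difference for both ligands was 0.31 ± 0.07 log2 (limma adjusted p = 0.0759), or 1.24-fold. The 95% interval of the difference was 0.10 to 0.34 for the first probe set and 0.16 to 0.46 for the second. When the probe sets of each gene were averaged before the test, Foxf1 differed by 0.27 log2 and passed the threshold (limma adjusted p = 0.0225), a call that each probe set alone did not reach. In that fit 1.64% of 18193 genes passed. Foxf1 also passed there for Shh alone (0.26 log2, limma adjusted p = 0.0406), where 1.82% of genes passed. These 2 were the only member probe sets whose groups did not overlap, against 2.7% of all probe sets with every ligand array above every Vehicle array.

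The probe sets of Foxf1 did not order the ligand arrays alike. Ihh 1 was the highest array for 1434939_at and the lowest ligand array for 1423013_at. Probe positions along the Foxf1 transcript were not known here. Set against Vehicle singly, Shh differed by 0.18 ± 0.06 log2 (limma adjusted p = 0.18) and 0.34 ± 0.08 (adjusted p = 0.0726), and Ihh by 0.26 ± 0.06 (adjusted p = 0.178) and 0.28 ± 0.08 (adjusted p = 0.266). The comparisons with Vehicle share the Vehicle arrays. Shh minus Ihh was -0.08 (95% interval -0.22 to 0.06) for 1434939_at and 0.06 (-0.11 to 0.24) for 1423013_at, with opposite signs.

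Foxl1 is a forkhead gene of the mesenchymal cells beneath the epithelium, which supply it with Wnt ligands. Its probe set 1423027_at read 5.49, 5.47 and 5.56 log2 with Shh, 5.37, 5.33 and 5.55 with Ihh, and 5.0, 5.29 and 5.36 with Vehicle. Of the ligand arrays only Ihh 2 lay within the Vehicle range, under Vehicle 3, and Vehicle 1 was the lowest of the 9. The difference for both ligands was 0.25 ± 0.08 log2 (SE, limma adjusted p = 0.244), with a 95% interval of 0.06 to 0.43. Without Vehicle 1 it was 0.14 (adjusted p = 0.646). Shh alone differed by 0.29 ± 0.10 (adjusted p = 0.171) and Ihh alone by 0.20 ± 0.10 (adjusted p = 0.599). Without Vehicle 1 these were 0.18 and 0.09. These levels were under the array medians of 5.87 to 5.92.

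Foxf2 acts in the fibroblasts and muscle of the mouse gut wall and restrains Wnt signalling there. Its probe set 1418220_at read 7.63, 7.32 and 7.47 log2 with Shh, 7.38, 7.41 and 7.56 with Ihh, and 7.28, 7.24 and 7.48 with Vehicle. Only Shh 1 and Ihh 3 lay above all Vehicle arrays. The difference was 0.13 ± 0.08 log2 (limma adjusted p = 0.576), with a 95% interval of -0.05 to 0.31 that holds 0. It was 0.20 without Vehicle 3 and 0.08 without Vehicle 2. The other Foxf2 probe set, 1447562_at, had the same value, 3.59 log2, on Shh 1 and all 3 Vehicle arrays. That value occurred in 40 probe sets and carries no order, and the full range of this probe set over the 9 arrays was 3.44 to 3.73, with a difference of -0.0045 (limma adjusted p = 0.989).

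**Figure D2:**
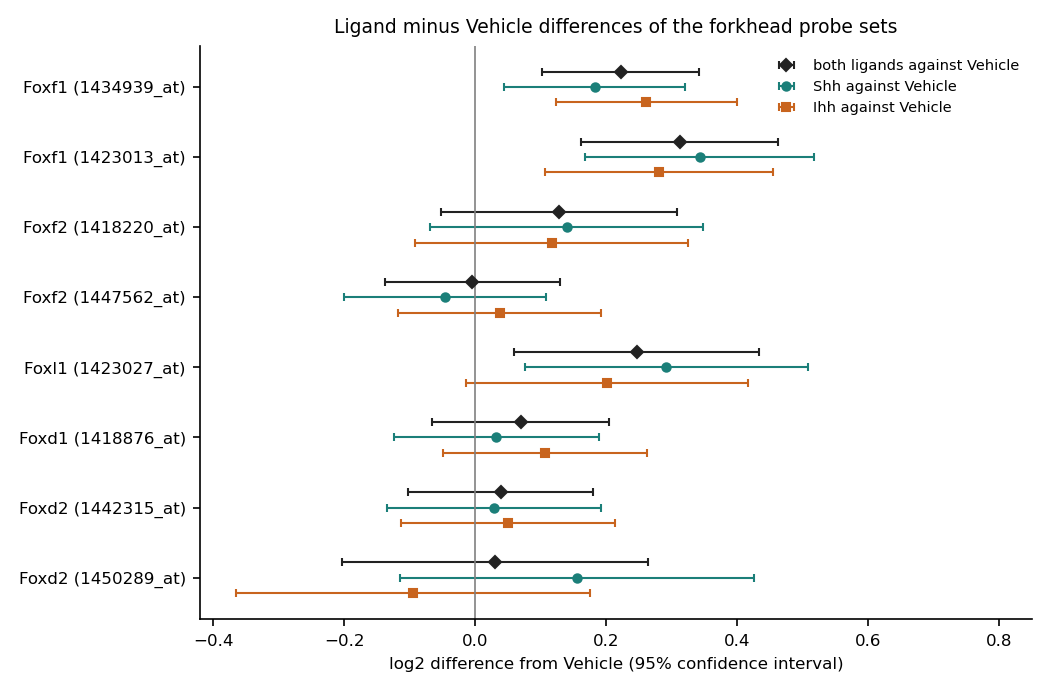
Log2 difference from Vehicle (horizontal axis) of the 8 probe sets, for both ligands, Shh and Ihh. Points are limma estimates and bars 95% intervals not adjusted for multiple tests. For both ligands the intervals of the 2 Foxf1 probe sets and of Foxl1 lie above 0, and the other 5 hold 0.

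The Foxd members overlapped between groups. Foxd1 read 3.40, 3.57 and 3.58 log2 with Shh, 3.57, 3.59 and 3.61 with Ihh, and 3.46, 3.41 and 3.58 with Vehicle. The groups overlapped, and its values were close to the lowest on the arrays, 2.78 log2, so whether the gene was expressed was not determined. For both ligands Foxd1 differed by 0.07 ± 0.06 log2 (limma adjusted p = 0.711), or 0.03 without Vehicle 2 and 0.12 without Vehicle 3. Foxd2 probe set 1442315_at read 5.58, 5.70 and 5.83 log2 with Shh, 5.78, 5.73 and 5.66 with Ihh, and 5.63, 5.66 and 5.73 with Vehicle. Shh held both the lowest and the highest of these 9 values, and the difference for both ligands was 0.04 ± 0.06 (limma adjusted p = 0.869). The second, 1450289_at, read 4.98, 4.85 and 4.70 with Shh, 4.47, 4.63 and 4.68 with Ihh, and 4.40, 4.79 and 4.87 with Vehicle. Its Vehicle arrays were spread over most of the range of the ligand arrays, and its difference for both ligands was 0.03 ± 0.11 log2 (limma adjusted p = 0.948).

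Between ligands and over the single ligands, limma again called 0 of the 8 probe sets. For Shh against Vehicle 3 had an unadjusted p under 0.05, where 17.3% of all probe sets did and 0.946% passed the threshold. For Ihh against Vehicle there were 2, where 8.99% did and 0.284% passed, and for Shh against Ihh 0, where 13.6% did and 0.00444% passed. The widest Shh minus Ihh difference was that of Foxd2 1450289_at, 0.25 ± 0.12 log2 (limma adjusted p = 0.392, 95% interval -0.02 to 0.52). The other Foxd2 probe set differed by -0.02 between the ligands (-0.18 to 0.14). Over the 8 probe sets, from 5 genes, the median difference for both ligands was 0.099 log2, with 7 above 0 and 1 below. Over all 45037 probe sets tested the median was 0.011, with 24936 above 0.

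The other forkhead genes on the array, 74 probe sets of 32 genes, are shown with the members in the plot of all forkhead probe sets. For both ligands 33 of them were above 0 and 41 below, with a median of -0.013 log2 and a range from -0.346 (Foxd3, a neural crest factor) to 0.242 (Foxq1). For both ligands limma called 0, with 9 at an unadjusted p under 0.05, where 0.804% and 12.6% of all probe sets were. For a single ligand it called 1, with Shh, where 0.946% of all probe sets passed. The 1 called was a probe set of Foxp1, a repressor of many cell types, which fell with Shh by 0.34 ± 0.06 log2 (1443258_at, limma adjusted p = 0.0385). Foxp1 has 8 probe sets, of which 7 were below 0 and 1 above for both ligands, and that probe set differed by -0.24 for both ligands (adjusted p = 0.0808). None of the 74 had every ligand array above every Vehicle array, where 2.7% of all probe sets did. Every ligand array was below every Vehicle array in 4 of them, where 2.62% of all probe sets did so. For Foxp1, Foxn2, Foxj3, Foxo3 and Foxn3, named because 1 of their probe sets read high on these arrays, the differences of those probe sets lay between -0.03 and -0.01 log2 (limma adjusted p of 0.883 to 0.974).

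**Figure D3:**
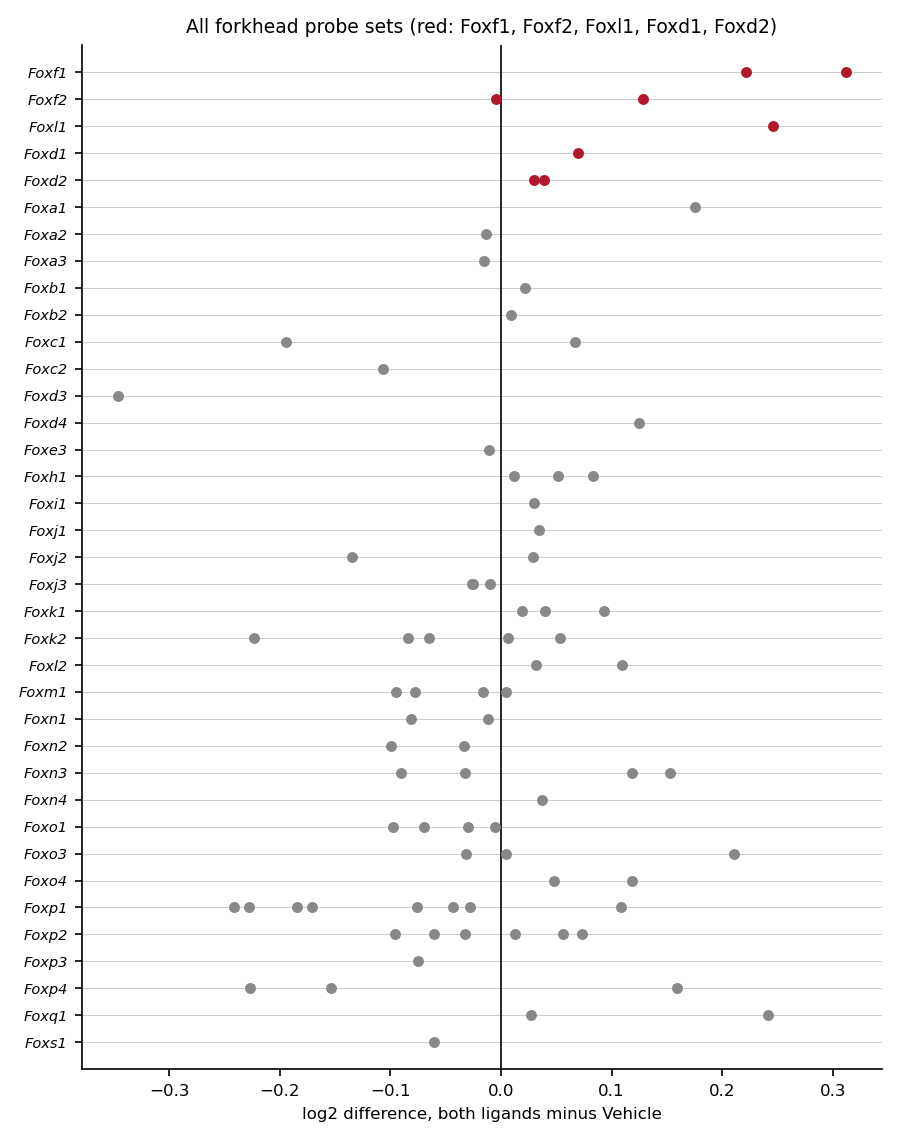
Log2 difference of both ligands minus Vehicle (horizontal axis) for every forkhead probe set with 1 gene symbol, 1 point per probe set, with the 5 members in red at the top and the other 32 genes in grey. The 2 Foxf1 points, at 0.22 and 0.31, and the Foxl1 point, at 0.25, have 1 grey point, Foxq1 at 0.242, to the right of the lower Foxf1 point.

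Foxf1 and Foxl1 are neighbours on chromosome 8, with Mthfsd and Foxc2 between them in the RefSeq gene order of GRCm38.p6, which was used only for order. Foxf2 stands on chromosome 13 between Foxq1 and Foxc1. Fendrr read 7.88, 8.09 and 8.09 log2 with Shh, 8.34, 8.14 and 8.19 with Ihh, and 8.29, 7.90 and 7.66 with Vehicle. Its groups overlapped, and the difference for both ligands was 0.17 ± 0.12 (limma adjusted p = 0.619). Between Foxf1 and Foxl1, Mthfsd, which has a folate enzyme domain, differed by 0.04 ± 0.08 (adjusted p = 0.891), and Foxc2, a forkhead factor of vessels and mesenchyme, by -0.11 ± 0.12 (adjusted p = 0.779). Both were short of the threshold, and the difference between neighbours was not tested. Foxc2 read 4.65 to 5.12 log2 over the arrays, under the array medians of 5.87 to 5.92, so its low signal limits this comparison. Around Foxf2, the highest probe set of Foxq1 differed by 0.03 ± 0.10 (limma adjusted p = 0.951) and that of Foxc1 by 0.07 ± 0.09 (adjusted p = 0.83). Each has a second probe set. That of Foxq1 differed by 0.24 ± 0.20 (adjusted p = 0.695), and that of Foxc1 by -0.19 ± 0.10 (adjusted p = 0.457), opposite in sign to the first. Both Foxc1 probe sets read under the array medians. The gene next to Foxf2, 1700018A04Rik, differed by 0.32 ± 0.12 (adjusted p = 0.287) and read 4.75 to 5.51 log2, also under the array medians. It and Exoc2 (0.13 ± 0.05, limma adjusted p = 0.307) were the 2 of the 6 neighbours of Foxf2 with an unadjusted p under 0.05. Of all probe sets 12.6% had such a p. The 6 neighbours of Foxd1, also on chromosome 13, lay between -0.03 and 0.10 log2, and the 6 of Foxd2, on chromosome 4, between -0.10 and 0.03, with no adjusted p under 0.503.

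**Figure D4:**
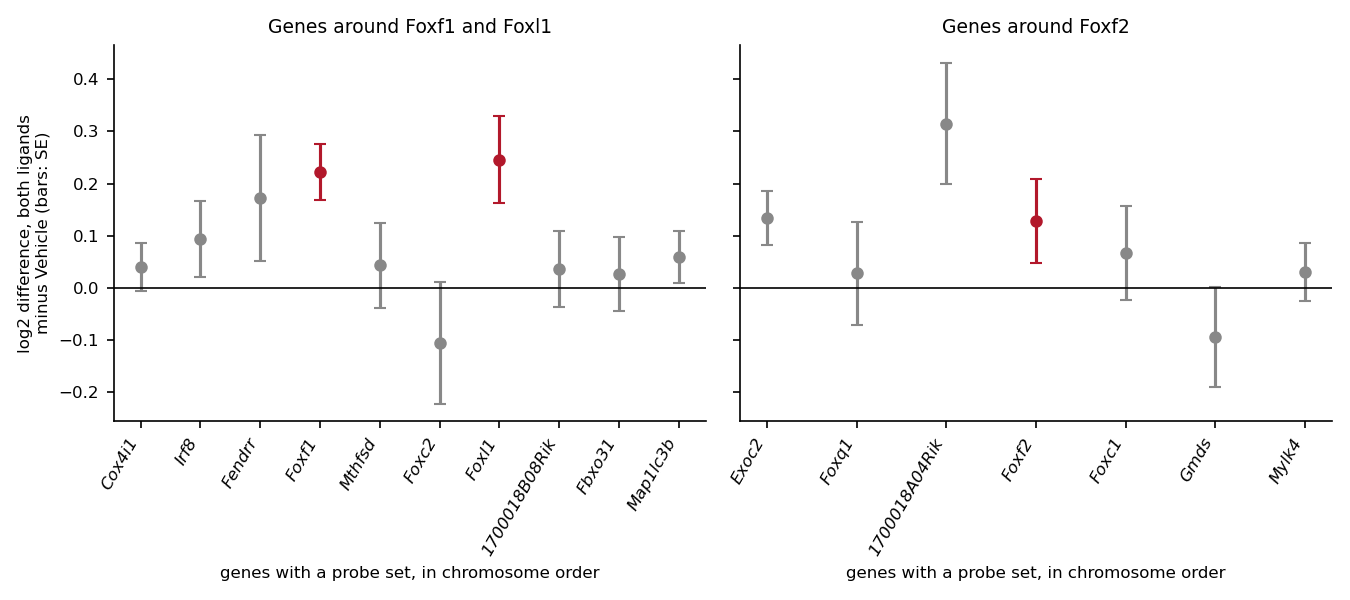
Log2 difference of both ligands minus Vehicle (vertical axis, bars SE) for genes with a probe set in chromosome order around Foxf1 and Foxl1 (left) and around Foxf2 (right), members in red. Only the highest probe set of each gene is shown. Foxf1 (0.22) and Foxl1 (0.25) stand above Mthfsd and Foxc2 between them, and Foxf2 (0.13) is below 1700018A04Rik (0.32) next to it. Foxl1, Foxc2 and 1700018A04Rik read under the array medians.

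The hedgehog pathway itself was read beside the forkhead members on the same arrays. Ptch1, the hedgehog receptor that the pathway induces, read 10.41, 10.88 and 10.35 log2 with Shh, 10.57, 10.49 and 10.98 with Ihh, and 9.25, 9.11 and 9.06 with Vehicle. It rose with both ligands by 1.48 ± 0.13 log2 (limma adjusted p = 0.00079). Hhip, which binds and sequesters hedgehog ligands, rose by 0.58 ± 0.10 (adjusted p = 0.0318). Gas1, a co-receptor, fell by 0.68 ± 0.10 (adjusted p = 0.0152). Gli1, a transcription factor that the pathway induces, read 5.63 to 6.56 on the ligand arrays and 5.01 to 5.44 with Vehicle, a difference of 0.89 ± 0.18 (adjusted p = 0.0542) that missed the threshold when each probe set was tested. Of the 14 pathway genes measured, 2 rose and 1 fell, with a median difference of -0.012 log2. An unadjusted p under 0.05 was found for 7 of them. Of all probe sets tested 0.804% passed the threshold and 12.6% had such a p.

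Genes linked to the forkhead members by mouse work were taken from a list of 12 for Foxf1 and Foxf2 and of 10 for Foxl1. In the first list 1 rose and 1 fell for both ligands, with a median of 0.15 log2. These 2 were also its only genes at an unadjusted p under 0.05. Of all probe sets 0.804% were called and 12.6% had such a p. Myocd, the coactivator of smooth muscle genes, rose by 1.19 ± 0.20 log2 (limma adjusted p = 0.0279), reading 6.56 to 7.77 on the ligand arrays and 5.91 to 5.97 with Vehicle. Wnt5a, a Wnt ligand of the mesenchyme, fell by 0.42 ± 0.08 (adjusted p = 0.0377), reading 10.35 to 10.61 on the ligand arrays and 10.84 to 11.12 with Vehicle. Bmp4, a BMP ligand of the mesenchyme under villi, differed by 0.21 ± 0.10 (adjusted p = 0.404), and Sfrp1, a secreted Wnt inhibitor linked to Foxf2, by 0.15 ± 0.15 (adjusted p = 0.758). In the Foxl1 list limma called 0 of 10, with 4 at an unadjusted p under 0.05, where 0.804% and 12.6% of all probe sets were. The median was -0.024 log2. Of these 10 genes 4 were above 0 and 6 below. Pdgfra, a receptor on Foxl1-positive cells, differed by -0.01 ± 0.06 (adjusted p = 0.984), and Sdc1, a proteoglycan whose level changes in mice without Foxl1, by -0.30 ± 0.07 (adjusted p = 0.0808). Like Sdc1, Rspo3 (-0.46 ± 0.11, limma adjusted p = 0.114), Wnt4 (0.37 ± 0.11, adjusted p = 0.188) and Bmp2 (-0.32 ± 0.15, adjusted p = 0.396) had an unadjusted p under 0.05.

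For each member the 3 genes most alike over the 9 arrays were found by Pearson's r among 11197 genes, using the highest probe set of each gene. For Foxf1 these were Pcsk6 (r = 0.971), Reps2 (0.96) and Epha3 (0.931). Reps2, an adaptor of endocytosis, and Epha3, an ephrin receptor, rose with both ligands by 0.43 ± 0.06 and 0.49 ± 0.07 log2 (limma adjusted p of 0.00925 and 0.0145), while Pcsk6, a protease that matures secreted factors, differed by 0.16 ± 0.05 (adjusted p = 0.184). For Foxl1 they were Sun2, Cenpu and Tmem167 (r of 0.944, 0.938 and 0.933), and for Foxf2 Rps2, Hipk2 and Plaur (0.951, 0.951 and 0.949). For Foxd1 and Foxd2 the highest r was 0.903 (Rbm25) and 0.909 (Ppp4r3b). The 9 points share arrays, groups and normalization, and the best of 11197 such values is high by selection, so these are descriptions. The Foxf1 probe set used was itself higher on every ligand array than on every Vehicle array. Genes picked for likeness to it therefore tend to differ in the same way. The differences and adjusted p of Reps2, Epha3 and Pcsk6 are thus not separate evidence.

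The cultures carried the markers of mesenchyme and also of other cells. The mean log2 level of the 10 mesenchyme markers was 11.26 to 11.55 on the ligand arrays and 11.41 to 11.62 with Vehicle. For both ligands 8 of these markers were below 0 and 2 above, with a median difference of -0.11 log2. Limma called 0 of the 10, with 4 at an unadjusted p under 0.05, where 0.804% and 12.6% of all probe sets tested were. The same shares stand beside the counts for both ligands in the other marker lists below. The 10 immune cell markers averaged 9.69 to 9.81 on the ligand arrays and 9.91 to 10.1 with Vehicle, a lower mean on every ligand array, although 5 of the 10 were above 0 and 5 below (median difference -0.072). Among these Cd14, Adgre1 and Itgam, of macrophages, fell by 1.66 ± 0.10, 1.04 ± 0.08 and 0.91 ± 0.09 log2 (limma adjusted p of 3.9e-05, 0.000343 and 0.00164), while Laptm5 and Cx3cr1 rose by 0.37 ± 0.07 and 0.87 ± 0.17 (adjusted p of 0.047 and 0.0478). The 10 endothelium markers averaged 8.65 to 9.18 on the ligand arrays and 9.0 to 9.26 with Vehicle. For both ligands all 10 were below 0, with 7 at an unadjusted p under 0.05 and 0 called by limma. For Shh against Vehicle 1 was called, Flt1, at -0.79 ± 0.14 log2 (limma adjusted p = 0.0313), where 0.946% of all probe sets passed. The 12 epithelium markers averaged 5.64 to 7.48 on the ligand arrays and 5.67 to 7.50 with Vehicle, with the highest means on Vehicle 1 and Shh 3. Single markers varied unequally over the 9 arrays. Krt8 ranged from 7.54 to 10.62 and Cdh1 from 4.71 to 8.37, while Epcam read 7.72 to 7.98. For both ligands 8 of the 12 were above 0 and 4 below (median difference 0.036), with 0 at an unadjusted p under 0.05 and 0 called by limma. Enteric neuron and glia (8.17 to 8.6 on the ligand arrays and 8.35 to 8.6 with Vehicle), interstitial cell of Cajal (7.76 to 8.5 and 7.88 to 8.46) and mesothelium markers (4.94 to 5.30 and 4.98 to 5.49) overlapped. Of the 6 neuron and glia markers measured 5 were below 0, with a median difference of -0.23 log2, 4 at an unadjusted p under 0.05 and 0 called by limma. Gapdh probe sets at the 3′ end minus those at the 5′ end, which read RNA integrity, gave -0.188 to -0.152 on 5 ligand arrays, -0.045 on Ihh 1 and -0.076 to 0.028 with Vehicle. Sex-linked transcripts differed between pools and unevenly by group. Xist, of female cells, read 11.31, 11.24 and 6.43 log2 with Shh, 10.04, 10.28 and 10.66 with Ihh, and 10.82, 6.34 and 6.48 with Vehicle. Eif2s3y, of male cells, read 3.24, 3.17 and 8.45 with Shh, 8.51, 7.54 and 7.74 with Ihh, and 6.24, 8.66 and 8.98 with Vehicle. Xist was thus low in 1 of the 6 ligand pools and in 2 of the 3 Vehicle pools, and Eif2s3y was low in 2 Shh pools. The part of cell make-up, RNA quality and sex in the Foxf1 and Foxl1 values was not tested, and in such samples fewer cells of a type and less RNA per cell cannot be told apart.

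**Figure D5:**
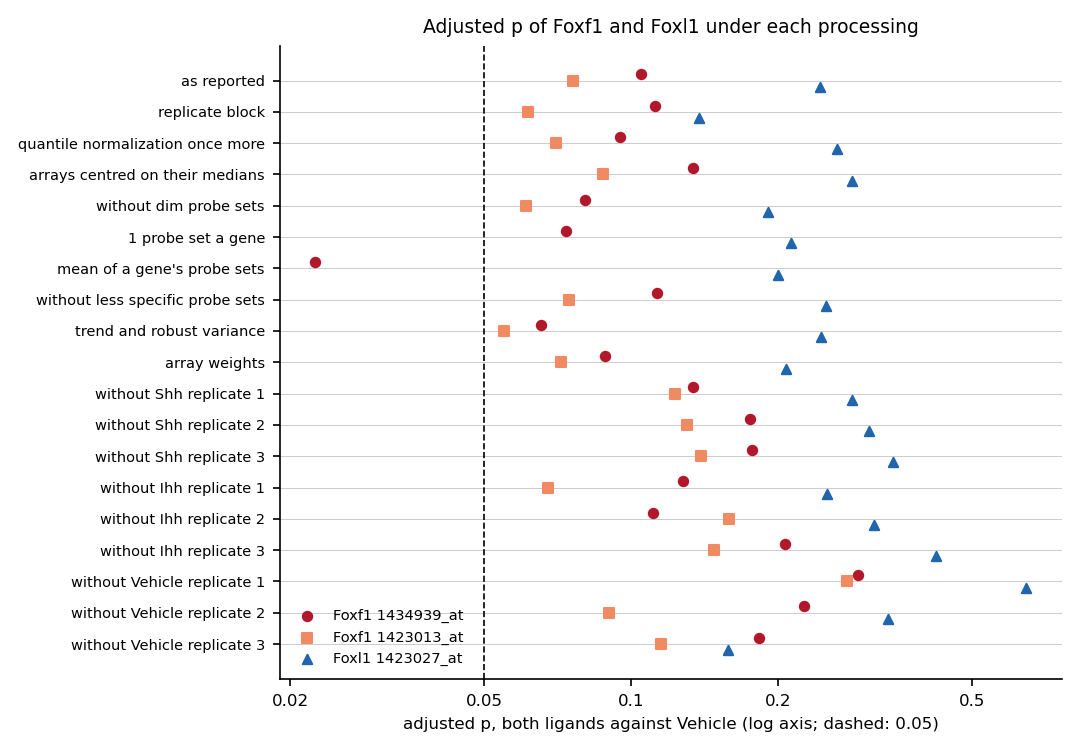
Limma adjusted p of the 2 Foxf1 probe sets and of Foxl1 for both ligands against Vehicle (horizontal log axis, dashed line at 0.05) under each way of processing (rows). The 1 point left of the line is Foxf1 with its probe sets averaged, at 0.0225.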

How the data were processed

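The deposited values are log2 expression per probe set on 9 Affymetrix arrays, hybridised with biotin-labelled cRNA from 6 ug of total RNA, per the labels' protocols. GCOS and RMA are the tools named for them, per the submitters' processing notes, without versions. Their log2 scale was read from their range, 2.78 to 14.2. Array medians were 5.87 to 5.92, and pairs of arrays correlated at r of 0.991 to 0.998 across probe sets. Symbols came from the platform annotation, in which 34945 probe sets have 1 symbol; 64 control probe sets were left out of the tests.

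For each probe set, limma 3.58.1 (R 4.3.3, moderated variance) estimated 3 group means from the 9 arrays (6 residual and 4.25 prior degrees of freedom), two-sided, with Benjamini-Hochberg adjustment over 45037 probe sets in each of 4 comparisons. Gene lists and neighbours used the highest probe set of a gene. The plan was to name all members, called forkheads, the 5 highest other forkheads and the 3 nearest genes on each side of a member. It also held Ptch1, Gli1, Hhip, called list genes (up to 4 a list, smallest p) and the 3 most alike. Only some of the nearest and of the most alike genes are named in the text. List genes short of the threshold, Cx3cr1, Exoc2, Foxd3, Foxq1 and the sex-linked genes were named after their values were seen. Members and lists were chosen with earlier results of these data known. In simulated data limma recovered 89% of 100 probe sets changed 1.5-fold and 95% of 100 changed 2-fold for both ligands against Vehicle, over 45037 probe sets, with 4.2% false calls. The simulated noise was independent between probe sets and arrays, while the real pools differed in epithelium markers and sex-linked transcripts. The 4.2% is therefore not the share of false calls in these data. The changed probe sets were drawn only from those with a mean above the median level. Foxl1, Foxd1, both Foxd2 probe sets and Foxf2 1447562_at lie under it, and no member differed by as much as 1.5-fold. The recovered shares therefore do not give the recovery for the members. The number of arrays limits the precision. Alternatives were a replicate block, 2 normalizations, 4 choices of probe sets, 2 variance models, smaller fits and leaving out each array.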

Additional observations from a re-analysis of the deposited data

Results flagged for a closer look

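The Foxd2 probe set 1450289_at stood out because its 3 Shh arrays were all above the Vehicle mean of 4.69 log2 and its 3 Ihh arrays all below it. The margins were narrow, with Shh 3 at 4.70 and Ihh 3 at 4.68, inside the Vehicle range of 4.40 to 4.87. Shh averaged 4.84 ± 0.14, Ihh 4.59 ± 0.11 and Vehicle 4.69 ± 0.25 (SD, n = 3 each). Shh minus Ihh was 0.25 log2 (limma adjusted p = 0.392), which did not pass the threshold, and the other Foxd2 probe set differed by -0.02.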

How the results depend on the processing

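With the probe sets of each gene averaged, 1 member (Foxf1) passed the threshold for both ligands, where 1.64% of 18193 genes passed. For Shh 1 member passed (Foxf1, 0.26 log2, limma adjusted p = 0.0406), where 1.82% of the genes passed. With each probe set tested by itself, 0 passed in either comparison. Under all other alternatives run, 0 passed in any comparison. The adjusted p of Foxf1 for both ligands otherwise lay between 0.0549 (trend and robust variance) and 0.292 (without Vehicle 1). Of 564 recomputed member differences 19 changed sign, all of them short of the threshold. Averaging gave -0.023 for Foxd2 (Ihh), 0.115 for Foxd2 and -0.0301 for Foxf2 (both Shh minus Ihh). Quantile normalization gave -0.0066 for Foxd2 1442315_at (Shh). Array weights gave 0.0048 for Foxf2 1447562_at and -0.015 for Foxd2 1450289_at (both ligands). Without single arrays the ranges were -0.112 to 0.123 (Foxd2 1450289_at) and -0.0309 to 0.0211 (Foxf2 1447562_at) for both ligands. For Shh they were -0.0052 to 0.092 (Foxd1), -0.0359 to 0.0911 (Foxd2 1442315_at) and -0.0719 to 0.0027 (Foxf2 1447562_at), and for Ihh -0.0157 to 0.0883 (Foxf2 1447562_at). For Shh minus Ihh they were -0.0554 to 0.0981 (Foxf2 1418220_at) and -0.085 to 0.042 (Foxd2 1442315_at).

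Deviations from the group means correlated at -0.182 to 0.462 in 9 same-numbered pairs and at -0.371 to 0.2 in 18 others. All 3 same-numbered pairs of Ihh and Vehicle were over 0.1 (0.296, 0.195 and 0.462), and pairs with Shh were at -0.182 to 0.108. Deviations within a group of 3 arrays sum to 0, so these r depend on one another. Whether Ihh and Vehicle pools of the same number belong together was not tested. The numbers were not taken to pair all samples. For Ihh against Vehicle the block gave 162 probe sets, against 128, and 0 members. With the replicate block 0 members passed, Foxf1 had adjusted p of 0.112 and 0.0615, and the probe sets called for both ligands were 599, against 362. That count was 919 with array weights and 111 (without Vehicle 1) to 554 (without Vehicle 3) with an array left out. For Shh it was 426, against 879 with the block, 186 in a fit of 2 groups and 92 (without Vehicle 1) to 846 (without Vehicle 3), and for Ihh 128, against 344 with array weights and 56 (without Ihh 2) to 270 (without Vehicle 3). Low signal limits Foxd1, Foxf2 1447562_at and Foxd2 1450289_at, at the 6.2, 7.4 and 31.4 percentiles of mean level over all probe sets.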
